A study of Mus musculus with 10 samples.

Results

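The cell cycle and DNA replication genes described here are 37 genes that act at the G1/S or the G2/M step of cell division. They were chosen by name, and all 37 were found in the deposited table of 14738 genes and passed the filter on low values. The split used here puts 16 of them at G1/S and 21 at G2/M.

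The data are RNA sequencing of Treg cells of the spleen, a CD4 T cell lineage defined by Foxp3 that holds immune responses in check, from mixed bone-marrow chimeras of mice. Marrow of CD45.1+ donors was mixed 1:1 with marrow of Foxp3Cre donors in the WT group and of Foxp3CreFlcnfl/fl donors in the Flcn KO group, so both groups carried the Foxp3-driven Cre and shared their hosts with CD45.1+ cells. Sorted cells were CD4+ Foxp3-YFP+ and CD45.2+ CD45.1-, with 5 biological replicates in each group by the design text and 10 libraries in all. Age, sex and the time after grafting were not given in the sources used here. Flcn encodes folliculin, a regulator of the Rag GTPases at the lysosome. Flcn itself had 78.0, 45.6, 54.7, 46.5 and 46.2 normalized counts in WT replicates 1 to 5 and 158, 129, 130.4, 149 and 124 in Flcn KO replicates 1 to 5, so that each library labelled Flcn KO exceeded each WT library. Values with ± are means and SD over the 5 libraries of a group throughout. A count over the whole gene does not show the deleted part, so it does not check the labels, and every direction below is that of the labels.

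The libraries held between 1914516 and 4153854 reads over the genes listed. Mitochondrial rRNA took 24.7% to 31.8% of them in 9 libraries and 44.1% in WT replicate 1. Foxp3 (1283 ± 64.1 in WT and 1207 ± 99.97 in libraries labelled Flcn KO) and Cd4 were high in every library. Summed markers of other cells were low beside them: 90.4 to 149.6 normalized counts in WT and 91.0 to 238 in libraries labelled Flcn KO over 8 B-cell genes, and 83.0 to 279.8 against 139 to 393 over 9 of 10 listed myeloid genes. Both sums were highest in Flcn KO replicate 3. No gene of these 2 lists passed the limma test described below. An unadjusted limma p under 0.05 was found for 3 myeloid genes, all higher in Flcn KO, and for no B-cell gene. Of all tested genes 7.16% had such a p and were higher. Log2 fold changes were positive for 7 of the 9 myeloid genes (median 0.70) and 7 of the 8 B-cell genes (median 0.37). Of the genes of both lists, only Adgre1 and S100a8, both myeloid, had a library without reads. The 6 Treg markers summed to 10983 to 12457 in WT and 10092 to 11177 in libraries labelled Flcn KO. Of these, Il2ra rose (log2 fold change 0.56, SE 0.11, limma adjusted p = 0.0292) and Ikzf2 fell (log2 fold change -0.55, SE 0.11, limma adjusted p = 0.0336). Ctla4 groups lay apart, lower in Flcn KO, without passing (limma adjusted p = 0.106).

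A dividing cell first copies its DNA and then separates the copies. At G1/S, cyclin E with its kinase and the E2F factors switch on the genes for the replicative helicase, the polymerase clamp and nucleotide synthesis. At G2/M, CDK1 with cyclins A and B drives mitosis, and the anaphase-promoting complex ends it by destroying cyclin B and securin. Promoters of G2/M genes often carry the cell cycle genes homology region (CHR) and CCAAT boxes bound by NF-Y, while G1/S promoters often carry E2F sites. In the spleen most Treg cells rest, and activated Treg cells hold most of the dividing ones.

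Promoter windows of 300 bases, from 250 before to 50 after the annotated start, were available from RefSeq (build GRCm38.p6) for 14 G1/S and 16 G2/M members. The 4 windows below are shown because they span the results. Pttg1 was the member that fell, Mki67 had the next smallest p, Ccnb2 is a G2/M gene with both CCAAT and CHR matches, and Mcm6 is a G1/S gene whose groups had almost the same mean. Each is written 5′ to 3′ on the gene's strand, and capitals mark matches, on either strand, to the E2F motifs TTCCCGC and TTGGCGC, to CCAAT, or to the CHR motif TTTGAA. No 2 of these motifs overlap in the windows shown.
Pttg1, chr11:43425932-43426231, minus strand: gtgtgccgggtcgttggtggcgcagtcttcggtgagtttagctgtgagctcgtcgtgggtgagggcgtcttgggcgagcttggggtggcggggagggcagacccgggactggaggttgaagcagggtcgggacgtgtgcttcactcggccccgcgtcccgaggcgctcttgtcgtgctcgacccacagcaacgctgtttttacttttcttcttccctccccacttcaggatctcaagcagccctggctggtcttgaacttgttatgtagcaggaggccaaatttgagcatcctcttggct
Mki67, chr7:135716330-135716629, minus strand: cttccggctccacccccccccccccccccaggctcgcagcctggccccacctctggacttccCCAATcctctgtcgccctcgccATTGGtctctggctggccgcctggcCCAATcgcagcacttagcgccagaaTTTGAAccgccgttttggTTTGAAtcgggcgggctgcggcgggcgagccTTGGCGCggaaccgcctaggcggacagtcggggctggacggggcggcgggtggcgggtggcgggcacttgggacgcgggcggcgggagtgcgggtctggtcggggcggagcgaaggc
Ccnb2, chr9:70421505-70421804, minus strand: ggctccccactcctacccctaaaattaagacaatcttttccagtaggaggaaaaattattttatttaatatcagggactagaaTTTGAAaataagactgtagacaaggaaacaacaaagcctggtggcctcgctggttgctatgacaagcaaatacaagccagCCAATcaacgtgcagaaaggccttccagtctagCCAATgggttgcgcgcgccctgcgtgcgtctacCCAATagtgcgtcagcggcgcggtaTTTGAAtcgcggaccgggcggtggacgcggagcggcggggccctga
Mcm6, chr1:128359656-128359955, minus strand: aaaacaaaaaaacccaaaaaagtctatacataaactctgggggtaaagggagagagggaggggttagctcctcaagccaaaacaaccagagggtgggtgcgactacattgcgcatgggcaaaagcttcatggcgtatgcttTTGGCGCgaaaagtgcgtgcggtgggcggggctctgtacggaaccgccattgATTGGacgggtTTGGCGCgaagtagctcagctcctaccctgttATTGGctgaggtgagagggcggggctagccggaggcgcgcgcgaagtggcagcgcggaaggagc

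Of the 16 G2/M members with a window, 11 (68.8%) held the CHR motif, against 2 of 14 G1/S members (14.3%) and 20.2% of all 27025 genes with a window. The 11 were Aurka, Bub1b, Ccnb2, Cdc20, Cdk1, Hmmr, Kif11, Mki67, Plk1, Top2a and Ube2c. CCAAT was found in 13 G2/M members (81.3%), in 9 G1/S members (64.3%) and in 41.1% of all genes. An E2F motif was found in 6 G1/S members (42.9%: Cdc6, Mcm3, Mcm5, Mcm6, Mcm7 and Rrm1), in 3 G2/M members (18.8%) and in 7.79% of all genes. The Mki67 window held 1 E2F match, 3 CCAAT and 2 CHR matches. The Pttg1 window held none of these, as did those of Birc5, Nusap1, Tyms, Tk1, Ccne1 and E2f1. Such a match is a description of letters and not a bound site. Mcm4, Ccne2, Ccna2, Foxm1, Aurkb, Tpx2 and Kif20a were not matched.

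**Figure D1:**
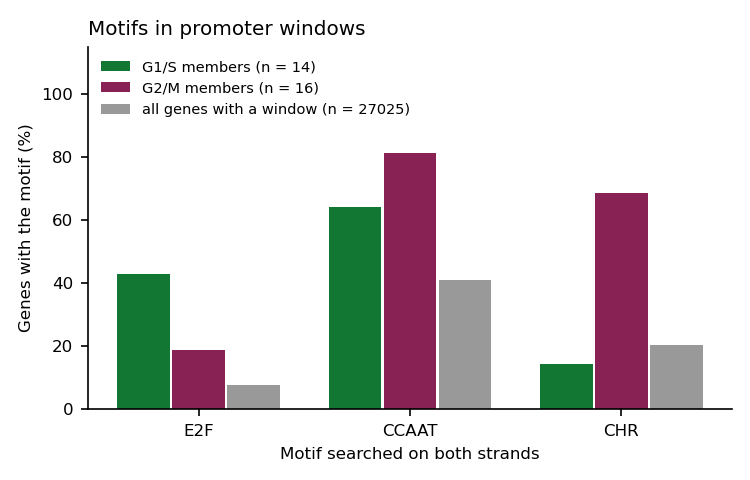
Share of genes (%) whose promoter window holds each motif on either strand, for the 14 matched G1/S members, the 16 matched G2/M members and all 27025 genes with a window. The CHR motif was in 68.8% of G2/M members and 20.2% of all genes, and E2F motifs were in 42.9% of G1/S members and 7.79% of all genes.

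Of the 37 members, 1 passed the test and it fell: Pttg1, in the G2/M class. None of the 16 G1/S members passed in limma, edgeR, DESeq2 or the authors' deposited table, and 1 of them had an unadjusted limma p under 0.05. The test was limma on log2(normalized count + 1), Flcn KO against WT, with Benjamini-Hochberg adjustment over all 14723 tested genes and a threshold of 0.05. It called 1.71% of all tested genes, with 0.944% higher and 0.768% lower in Flcn KO, so 1 of 37 is read against that background. An unadjusted p under 0.05 was found for 4 members, Pttg1, Mki67, Ccne2 and Bub1b, all lower, where 7.16% of all tested genes had one and were higher and 6.88% were lower. The median log2 fold change was -0.0083 over the G1/S members and -0.32 over the G2/M members, beside 0.0034 over all tested genes. Negative values were found for 8 of 16 and 14 of 21 members, against 49.4% of all tested genes. Without Pttg1 the G2/M median was -0.31. Single libraries moved the G2/M median, to -0.11 without WT replicate 2, -0.17 without WT replicate 3 and -0.11 without Flcn KO replicate 1. In bulk RNA, fewer dividing cells and less RNA per dividing cell cannot be told apart.

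**Figure D2:**
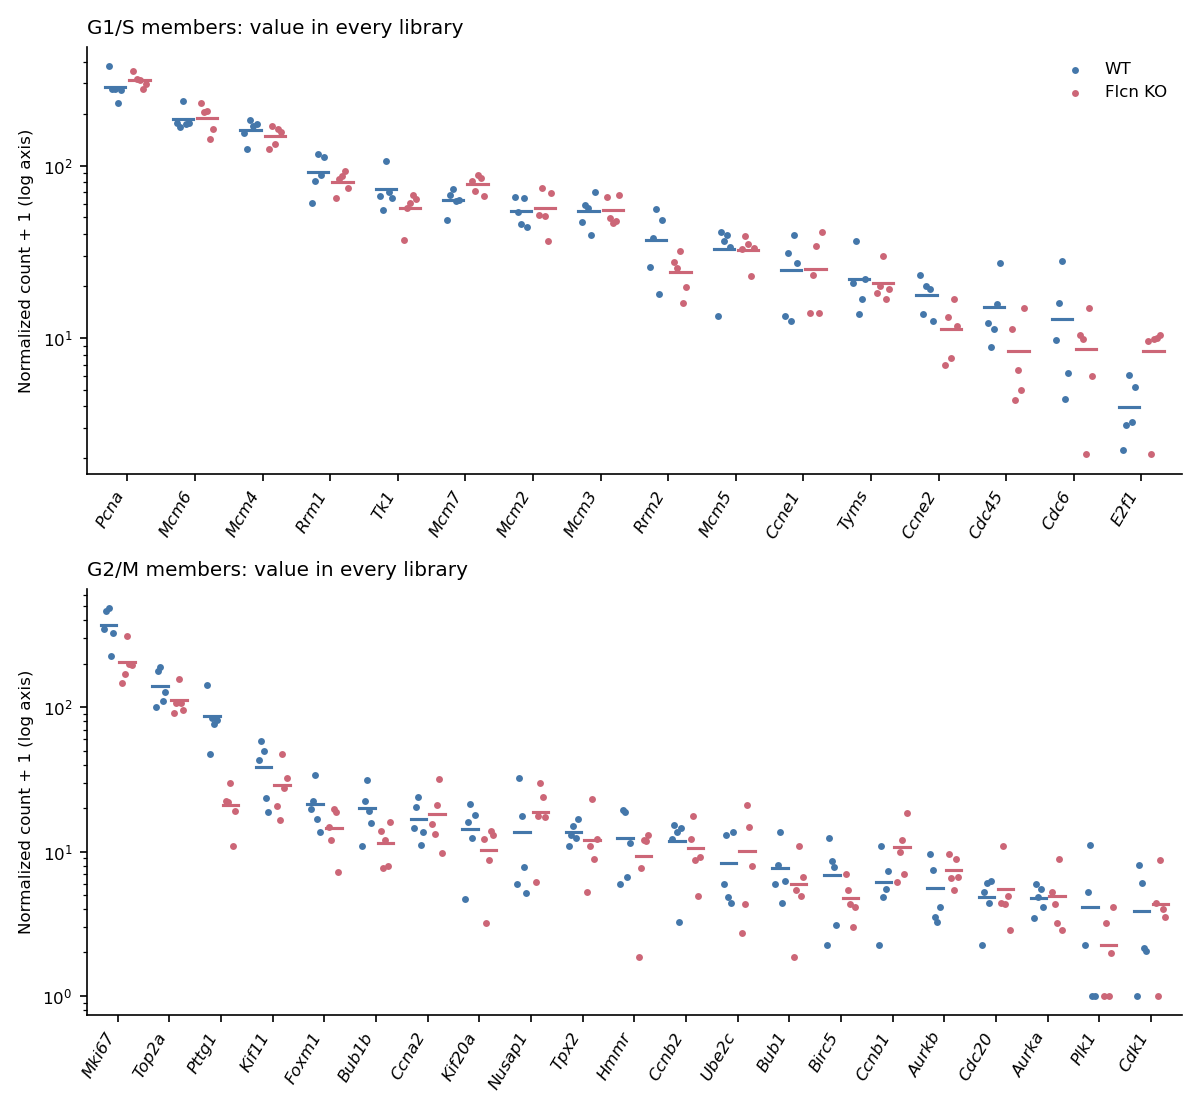
Normalized count + 1 (log axis) of each member in each library, with 5 WT points and 5 points of libraries labelled Flcn KO per gene and a bar at the group mean. Pttg1 is the member whose groups lie apart, and several G2/M genes lie within a few reads of 0.

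Levels differed widely between members. Per kilobase of the longest annotated protein-coding transcript (GENCODE vM21), the median level in WT was 16.2 normalized counts for G1/S and 3.37 for G2/M members. Pcna was highest with 189 per kilobase, Pttg1 was second with 51.2 and Cdk1 was lowest with 0.658. In libraries labelled Flcn KO, Pttg1 ranked 12th of 37 with 11.9 per kilobase, and Pcna stayed first with 205. The read counts behind these values were small for mitotic genes, with a median of 10 reads per G2/M member and library and 42 per G1/S member and library. Among G2/M members 10 of 21 had a mean under 10 normalized counts, so only large changes of these genes could have been detected.

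Among the G1/S genes no gene of the replicative helicase passed in limma, edgeR, DESeq2 or the authors' deposited table. The Mcm2 to Mcm7 genes encode its ring. Mcm6 had 175, 167, 237, 172 and 176 normalized counts in WT replicates 1 to 5 and 229.8, 203, 207, 141 and 163 in Flcn KO replicates 1 to 5. The groups overlapped, with the highest value in WT replicate 3 and the lowest in Flcn KO replicate 4. Its log2 fold change was 0.015 (SE 0.17, limma adjusted p = 0.982), with a 95% interval of -0.36 to 0.39. The intervals of Mcm2 (-0.45 to 0.50), Mcm3 (-0.39 to 0.45) and Mcm4 (-0.45 to 0.22) also lay on both sides of 0. Mcm5 was 31.8 ± 11.2 in WT and 31.5 ± 5.94 in libraries labelled Flcn KO (95% interval -0.61 to 0.75). Group means were 53.6 and 55.5 for Mcm2, 53.5 and 54.3 for Mcm3, and 160.5 and 148 for Mcm4, WT first.

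Mcm7 had 47.1, 66.2, 72.6, 61.2 and 61.9 in WT and 80.6, 69.9, 87.3, 84.2 and 65.3 in libraries labelled Flcn KO. Flcn KO replicates 1, 3 and 4 lay above every WT library, and the other two lay within the WT range. The difference did not pass (log2 fold change 0.33, SE 0.15, limma adjusted p = 0.364). Cdc45, which joins the ring to form the active helicase, had 11.1, 7.83, 10.2, 14.7 and 26.2 in WT and 10.3, 3.33, 5.53, 3.96 and 13.8 in libraries labelled Flcn KO. The groups overlapped, WT replicate 5 was highest, and the log2 fold change of -0.89 (SE 0.40, limma adjusted p = 0.357) did not pass. Cdc6, which loads the ring at origins, was 11.8 ± 9.44 in WT and 7.66 ± 4.83 in libraries labelled Flcn KO (95% interval -1.88 to 0.84).

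Genes of nucleotide supply and the DNA clamp did not pass in limma. Pcna, the clamp that holds polymerases on DNA, had 375, 278, 278, 230.0 and 272 in WT and 354, 319, 313, 276 and 295 in libraries labelled Flcn KO. The groups overlapped and the log2 fold change was 0.13 (SE 0.15, limma adjusted p = 0.761), with a 95% interval of -0.20 to 0.46. Rrm2, the regulated subunit of ribonucleotide reductase, had 24.8, 37.0, 54.7, 17.0 and 47.2 in WT and 26.6, 24.4, 30.9, 14.9 and 18.8 in libraries labelled Flcn KO. WT replicates 2, 3 and 5 lay above every library labelled Flcn KO, WT replicates 1 and 4 did not, and the difference did not pass (log2 fold change -0.55, SE 0.32, limma adjusted p = 0.505). Its partner subunit Rrm1 was 90.9 ± 23.2 in WT and 79.4 ± 11.3 in libraries labelled Flcn KO. The thymidylate synthase gene Tyms was 21.00 ± 8.79 in WT and 19.8 ± 5.14 in libraries labelled Flcn KO, and the thymidine kinase gene Tk1 was 71.7 ± 19.8 in WT and 56.1 ± 11.9 in libraries labelled Flcn KO. The 95% intervals were -0.61 to 0.28 for Rrm1, -0.62 to 0.55 for Tyms and -0.83 to 0.14 for Tk1.

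The E-type cyclins and E2f1 differed in sign. Ccne2, an E-type cyclin of S-phase entry, had 22.3, 12.8, 19.1, 18.1 and 11.5 in WT and 6.002, 12.2, 6.63, 15.9 and 10.7 in libraries labelled Flcn KO. Flcn KO replicates 1, 3 and 5 lay below every WT library, and the difference did not pass (log2 fold change -0.70, SE 0.28, limma adjusted p = 0.296). The other E-type cyclin, Ccne1, was 23.7 ± 11.6 in WT and 24.3 ± 12.2 in libraries labelled Flcn KO, with a 95% interval of -0.91 to 0.98. E2f1, a transcription factor that drives G1/S genes, had 1.238, 2.14, 5.09, 2.27 and 4.20 in WT and 8.57, 1.11, 8.84, 8.92 and 9.42 in libraries labelled Flcn KO. Every library labelled Flcn KO but replicate 2 lay above all of WT, where counts were 1 to 4 reads, and the log2 fold change was 0.96 (SE 0.47, limma adjusted p = 0.402).

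**Figure D3:**
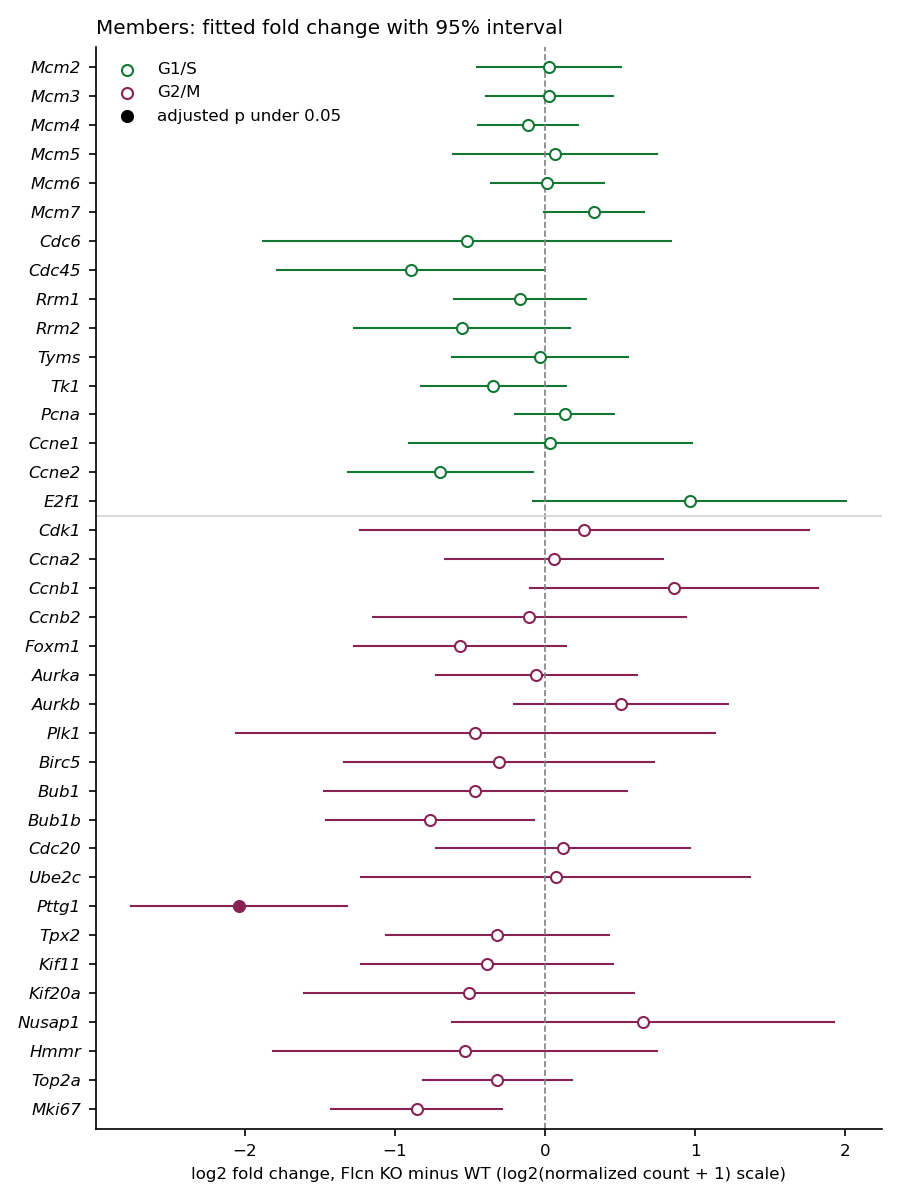
Fitted log2 fold change of each member, Flcn KO minus WT, with its 95% interval from limma; filled points have an adjusted p under 0.05. Pttg1 is the filled point at -2.04, and the intervals of Mki67, Bub1b and Ccne2 lie below 0 without an adjusted p under the threshold.

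Pttg1 fell in the libraries labelled Flcn KO. It encodes securin, which holds separase inactive until anaphase. Pttg1 had 142, 46.3, 82.8, 75.9 and 80.8 normalized counts in WT and 21.4, 21.1, 28.7, 9.91 and 18.2 in libraries labelled Flcn KO. Every library labelled Flcn KO lay below every WT library, as did 2.45% of all tested genes, while 4.92% had groups apart in either direction. The means were 85.6 ± 35.0 in WT and 19.9 ± 6.79 in libraries labelled Flcn KO, a 4.10-fold lower level on the log2(normalized count + 1) scale. The log2 fold change was -2.04 (SE 0.32, limma adjusted p = 0.0147), with a 95% interval of -2.75 to -1.32. The exact two-sided permutation test over 252 splits gave p = 0.00794, the smallest it can give with n = 5 per group and the value that any gene with groups apart must have, so it adds nothing to the description of the overlap. Each WT library had at least 65 Pttg1 reads, and the count in libraries labelled Flcn KO ranged from 10 to 29. Without WT replicate 1, the highest library, the log2 fold change was -1.83 (limma adjusted p = 0.0236).

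Within WT, the order of libraries by Pttg1 was not their order by the other mitotic genes. In WT it was highest in replicate 1, where the mean log2 level of the 19 G2/M members other than Pttg1 and Mki67 was lowest at 2.79. It was lowest in WT replicate 2, where that mean was highest at 3.93. Among the libraries labelled Flcn KO, replicate 3 was highest in both, with Pttg1 at 28.7 and that mean at 3.54. Of all libraries, WT replicate 1 had the most genes at 0 (807) and WT replicate 2 the fewest (117). The part of such zeros in the order within WT was not tested. Separase (Espl1), which securin binds, was 5.20 ± 5.54 in WT and 3.27 ± 2.09 in libraries labelled Flcn KO with a log2 fold change of -0.19 (SE 0.67, limma adjusted p = 0.941). None of 15 genes of cohesin and separase passed in limma, edgeR, DESeq2 or the authors' deposited table, none had an unadjusted limma p under 0.05, and their median was -0.051. Log2 fold changes were negative for 12 of these 15 genes, against 49.4% of all tested genes. The smallest p in that list was that of the cohesin subunit gene Stag1 (log2 fold change -0.14, SE 0.11, limma adjusted p = 0.645).

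Mki67, whose protein is the standard marker of cycling cells, had 349, 459.9, 486, 227 and 327 in WT and 146, 169.9, 311, 198 and 196 in libraries labelled Flcn KO. WT replicate 4 lay within the range of the libraries labelled Flcn KO, of which replicate 3 was the highest, and the other WT libraries lay above all of them. The means were 369.9 ± 105 in WT and 204 ± 63.3 in libraries labelled Flcn KO. The log2 fold change was -0.85 (SE 0.26, limma adjusted p = 0.159), with a 95% interval of -1.42 to -0.28, and did not pass in the main limma test. The exact two-sided permutation test gave p = 0.0159 for n = 5 per group. Mki67 passed in other models, which call more genes overall. With trend and robust settings limma gave an adjusted p of 0.0381, where 4.06% of genes were called (2.21% higher, 1.85% lower). On recovered reads edgeR gave an adjusted p of 0.00477 (5.64% of its genes called, 3.02% higher, 2.62% lower), and without a filter 0.00392 (4.20% called, 2.27% higher, 1.93% lower). DESeq2 gave an adjusted p of 0.00145 (4.93% called, 2.57% higher, 2.36% lower). In the authors' deposited table the adjusted p was 0.00152 and the log2 fold change -0.86, with 4.77% of genes called (2.48% higher, 2.29% lower). Leaving out 1 library at a time gave log2 fold changes of -1.02 to -0.74 and no call in limma.

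Markers of other cells were set beside Mki67. Flcn KO replicate 3, with the highest Mki67 of its group, had the highest summed B-cell (238), myeloid (393) and germinal centre and plasma cell (245) markers of the libraries labelled Flcn KO. WT replicate 4, with the lowest Mki67 in WT, had the highest B-cell (149.6) and germinal centre and plasma cell (249) sums of WT. The myeloid sum of WT was highest in replicate 2 (279.8), and Mki67 in replicate 3. Over 4 of 7 listed germinal centre and plasma cell genes the sums were 212 to 249 in WT and 134 to 245 in libraries labelled Flcn KO. None of the 4 passed in limma, and 1, Bcl6, had an unadjusted p under 0.05. Over 3 of 8 listed erythroid genes they were 133 to 188 and 190.1 to 219, of which Tfrc, also expressed by activated T cells, made up most, and all 5 libraries labelled Flcn KO lay above WT. Over 5 of 7 listed CD8 T and NK cell genes they were 43.0 to 70.6 and 40.0 to 69.6. Their part in the level of Mki67 was not tested.

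**Figure D4:**
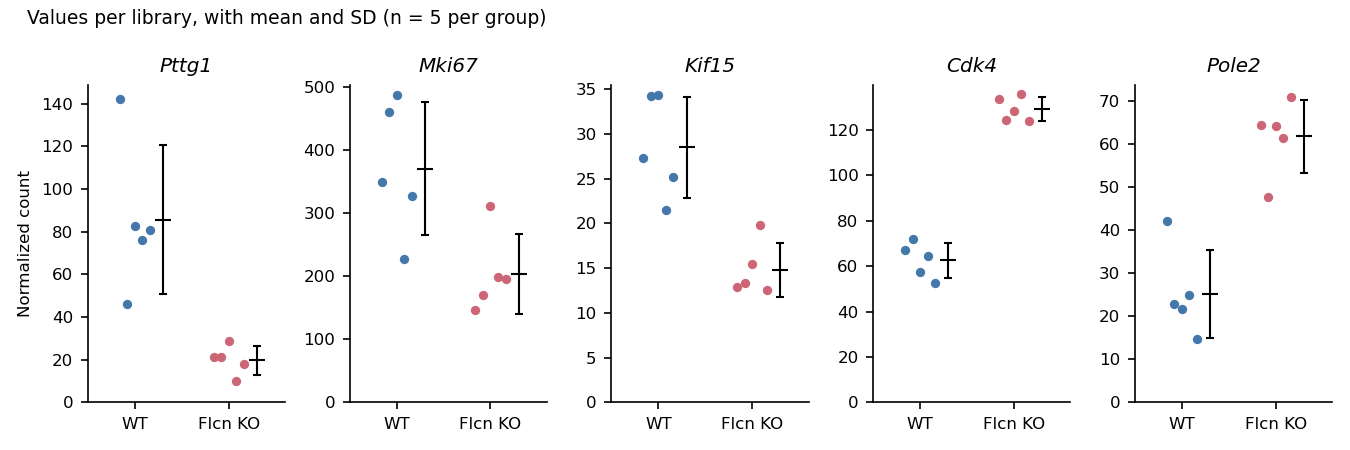
Normalized count per library (linear axis from 0) of Pttg1, Mki67, Kif15, Cdk4 and Pole2, with the mean and SD of 5 libraries per group. Cdk4 and Pole2 lie higher in every library labelled Flcn KO, Pttg1 and Kif15 lower, and the Mki67 groups overlap.

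Genes of the spindle and of chromosome structure had negative fold changes in 6 of 7 cases, Mki67 included. None of the 7 passed in the main limma test, and Mki67 alone of them passed in the other models given above. Top2a, the topoisomerase that untangles sister chromatids, had 99.1, 176, 189.7, 109 and 126 in WT and 90.0, 107, 155, 106 and 95.4 in libraries labelled Flcn KO. The groups overlapped, with WT replicates 2 and 3 highest, and the log2 fold change was -0.32 (SE 0.22, limma adjusted p = 0.596). Kif11, the motor that pushes spindle poles apart, was 37.7 ± 17.0 in WT and 27.96 ± 12.0 in libraries labelled Flcn KO. Kif20a, a motor of cytokinesis, was 13.4 ± 6.34 in WT and 9.18 ± 4.35 in libraries labelled Flcn KO, and Tpx2, which nucleates spindle microtubules, was 12.6 ± 2.29 in WT and 11.1 ± 6.69 in libraries labelled Flcn KO. Their 95% intervals were -1.22 to 0.45, -1.61 to 0.60 and -1.06 to 0.43. Hmmr, a spindle-associated protein gene, was 11.5 ± 6.46 in WT and 8.28 ± 4.63 in libraries labelled Flcn KO. Nusap1, which bundles spindle microtubules, was the exception in sign, 12.8 ± 11.5 in WT and 17.9 ± 8.78 in libraries labelled Flcn KO (95% interval -0.62 to 1.93).

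The spindle checkpoint and the anaphase-promoting complex showed no other call than Pttg1. Bub1b, a checkpoint kinase-like protein, had 9.91, 21.4, 30.6, 18.1 and 14.7 in WT and 12.9, 6.66, 11.1, 6.94 and 15.1 in libraries labelled Flcn KO. Only Flcn KO replicates 2 and 4 lay below all of WT, and the difference did not pass (log2 fold change -0.76, SE 0.31, limma adjusted p = 0.307). The checkpoint kinase gene Bub1 was 6.69 ± 3.63 in WT and 4.97 ± 3.29 in libraries labelled Flcn KO. Cdc20, the activator of the complex, was 3.85 ± 1.64 in WT and 4.52 ± 3.16 in libraries labelled Flcn KO, and Ube2c, its ubiquitin-conjugating enzyme, was 7.37 ± 4.58 in WT and 9.14 ± 7.61 in libraries labelled Flcn KO. The 95% intervals were -1.47 to 0.55, -0.73 to 0.97 and -1.22 to 1.37.

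Several mitotic cyclins and kinases had few reads. Ccnb1, a B-type cyclin, had 1.238, 9.97, 3.82, 4.53 and 6.30 in WT and 5.14, 8.88, 11.1, 5.95 and 17.6 in libraries labelled Flcn KO. The groups overlapped, the highest value was in Flcn KO replicate 5, and the log2 fold change of 0.86 (SE 0.43, limma adjusted p = 0.421) did not pass. Foxm1, a transcription factor of G2/M genes, had 18.6, 21.4, 33.1, 15.9 and 12.6 in WT and 13.7, 11.1, 18.8, 17.8 and 6.28 in libraries labelled Flcn KO. Its groups overlapped as well, and the log2 fold change was -0.56 (SE 0.32, limma adjusted p = 0.486). Aurkb, the kinase of the chromosomal passenger complex, had 8.67, 6.41, 2.55, 2.27 and 3.15 in WT and 8.57, 5.55, 4.42, 7.93 and 5.65 in libraries labelled Flcn KO, a log2 fold change of 0.51 (SE 0.32, limma adjusted p = 0.536) on at most 10 reads.

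The other members of this class had still fewer reads or smaller differences. Cdk1, the mitotic kinase, was 2.88 ± 3.06 in WT and 3.33 ± 2.80 in libraries labelled Flcn KO. It had no reads in WT replicate 1 and Flcn KO replicate 2, and a count of 0 allows up to 3 reads, which is 3.72 and 3.33 normalized counts there. Plk1, another mitotic kinase, had no reads in 2 libraries of each group, and its highest value was 10.2 in WT replicate 3. Such limits cover counting error only. Ccna2, the A-type cyclin, was 15.7 ± 5.21 in WT and 17.2 ± 8.55 in libraries labelled Flcn KO. Ccnb2, the second B-type cyclin, was 10.8 ± 4.91 in WT and 9.53 ± 4.73 in libraries labelled Flcn KO. The spindle-pole kinase gene Aurka was 3.79 ± 1.01 in WT and 3.93 ± 2.43 in libraries labelled Flcn KO, and the passenger protein gene Birc5 was 5.83 ± 4.19 in WT and 3.78 ± 1.52 in libraries labelled Flcn KO. The 95% intervals of these 4 reached from -1.34 to 0.94.

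The spread between libraries of a group was larger for G2/M than for G1/S genes. The mean of log2(normalized count + 1) over the 16 G1/S members was 5.32 ± 0.17 in WT and 5.21 ± 0.082 in Flcn KO. Over the 21 G2/M members it was 3.70 ± 0.48 and 3.46 ± 0.27. The difference of the G2/M means was -0.24, beside -0.11 for the G1/S means. The SD of single G2/M libraries within groups was 0.39, which is not the standard error of that difference. Without Pttg1 and Mki67 the G2/M difference was -0.12. These 2 members had the smallest p of their class in these data, so a smaller difference without them follows from the choice. The median log2 fold change of the other 19 G2/M members was -0.30, beside -0.0083 for the G1/S members. Whether the classes differed between groups was not tested. WT replicates 2 and 3 held the highest G2/M means, 4.24 and 4.18, and between them the highest value of 11 of the 21 G2/M members. WT replicates 1 and 4, with 3.27 and 3.29, lay below 4 of the 5 libraries labelled Flcn KO. WT replicate 3 was also highest for 6 of the 16 G1/S members.

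WT replicate 1 and Flcn KO replicate 1 had like mean levels of the other mitotic genes. The mean log2 level of the other 19 G2/M members was 2.79 in WT replicate 1 and 2.81 in Flcn KO replicate 1. In the same libraries Mki67 was 349 and 146 normalized counts and Pttg1 was 142 and 21.4. WT replicate 1 had the highest Pttg1, the highest share of mitochondrial rRNA and the most genes at 0 (807) of all libraries. In WT replicate 4, with a mean of 2.89, Mki67 was 227 and Pttg1 was 75.9. These libraries were picked after their values were seen, for their like means, and support no test.

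**Figure D5:**
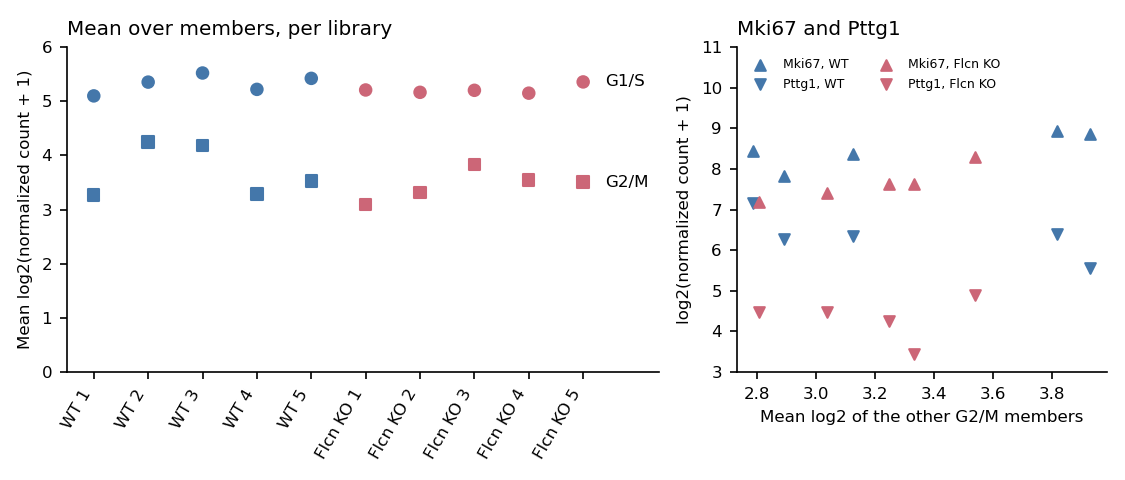
Left, mean log2(normalized count + 1) over the 16 G1/S and the 21 G2/M members in each library; WT replicates 2 and 3 have the highest G2/M means, 4.24 and 4.18. Right, log2(normalized count + 1) of Mki67 and Pttg1 against the mean of the other 19 G2/M members, 1 point per library and gene; the Pttg1 points of the groups do not overlap in height.

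Outside the 37 members, 3 of 135 tested genes of the cell cycle passed: Cdk4 and Pole2 rose and Kif15 fell. The background of calls was the 1.71% given above. Among 24 G1 regulators 1 rose and none fell, with a median of -0.025. Among 42 replication genes 1 rose and none fell, with a median of 0.00054. Among 55 mitotic genes 1 fell and none rose, with a median of -0.11. Negative log2 fold changes were found for 13 of the 24, 21 of the 42 and 36 of the 55, against 49.4% of all tested genes.

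Cdk4, the kinase that works with D-type cyclins early in G1, had 66.9, 71.9, 57.3, 64.6 and 52.5 in WT and 134, 124, 128, 136 and 124 in libraries labelled Flcn KO. All libraries labelled Flcn KO lay above all of WT, as was the case for 2.47% of tested genes. The means were 62.6 ± 7.74 in WT and 129 ± 5.45 in libraries labelled Flcn KO, a 2.06-fold higher level on the log2(normalized count + 1) scale. The log2 fold change was 1.04 (SE 0.12, limma adjusted p = 0.00289). Its call was kept without any 1 library. Tspan31, which overlaps Cdk4 in the annotation, had a log2 fold change of -0.07, SE 0.49, limma adjusted p = 0.972. The related kinase gene Cdk6 was 951 ± 122 in WT and 1209 ± 54.3 in libraries labelled Flcn KO (log2 fold change 0.35, SE 0.13, limma adjusted p = 0.238). Its groups did not overlap either, and it passed in edgeR (adjusted p = 0.0406).

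None of the D-type cyclin genes passed in limma. Ccnd1 was 8.46 ± 2.64 in WT and 14.5 ± 2.83 in libraries labelled Flcn KO, with every library labelled Flcn KO above WT and a log2 fold change of 0.74 (SE 0.23, limma adjusted p = 0.168) that did not pass. The far more abundant reads of Ccnd2 were 1147 ± 216 in WT and 1110.4 ± 109 in libraries labelled Flcn KO (log2 fold change -0.034, SE 0.15, limma adjusted p = 0.956), and those of Ccnd3 were 242 ± 27.3 in WT and 209 ± 50.6 in libraries labelled Flcn KO (log2 fold change -0.23, SE 0.18, limma adjusted p = 0.622). Among the kinase inhibitors Cdkn1b was 316 ± 34.2 in WT and 294 ± 24.4 in libraries labelled Flcn KO (log2 fold change -0.10, SE 0.12, limma adjusted p = 0.792). Cdkn1a was 2.51 ± 1.65 in WT and 2.35 ± 2.16 in libraries labelled Flcn KO. Cdkn2c was 7.78 ± 5.02 in WT and 3.73 ± 3.06 in libraries labelled Flcn KO. Its groups overlapped and it did not pass (log2 fold change -0.92, SE 0.47, limma adjusted p = 0.431). The log2 fold change of Cdkn2d was 0.027 (SE 0.14, limma adjusted p = 0.961). Rbl2, a pocket protein of resting cells, had every library labelled Flcn KO below WT. It did not pass in the main limma test (log2 fold change -0.51, SE 0.13, limma adjusted p = 0.0889). It passed in limma with a filter on a mean of 10 (adjusted p = 0.0486) and with trend and robust settings (adjusted p = 0.00403). It also passed in edgeR (adjusted p = 0.00363). Rb1 also had every library labelled Flcn KO below WT and did not pass in limma (log2 fold change -0.32, SE 0.14, limma adjusted p = 0.34). These genes were named for their role beside Cdk4 after their values were seen.

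Pole2, a subunit of the leading-strand polymerase, had 42.1, 22.8, 21.6, 24.9 and 14.7 in WT and 64.3, 47.7, 64.1, 61.4 and 70.9 in libraries labelled Flcn KO. The groups did not overlap, and the log2 fold change was 1.32 (SE 0.24, limma adjusted p = 0.0257). The annotation places Klhdc1 over part of the same locus, and Klhdc1 rose as well (0.83, SE 0.14, limma adjusted p = 0.0158). The strand setting of the counting was not given in the sources used here, so reads of these 2 genes may not be told apart and the value of Pole2 is uncertain. In limma the call of Pole2 was lost without WT replicate 2, 3 or 4 or without Flcn KO replicate 1, 3, 4 or 5 (adjusted p up to 0.0759).

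Kif15, a mitotic motor that works beside Kif11, had 27.2, 34.2, 34.4, 21.5 and 25.2 in WT and 12.9, 13.3, 15.5, 19.8 and 12.6 in libraries labelled Flcn KO. All libraries labelled Flcn KO lay below all of WT, and the log2 fold change was -0.90 (SE 0.18, limma adjusted p = 0.037). Its call was kept only without WT replicate 4 or Flcn KO replicate 4 and was lost without each of the others, with an adjusted p of up to 0.101. It was also lost with trend and robust settings (limma adjusted p = 0.0604). Cenpa, the histone variant of centromeres, was 165 ± 23.4 in WT and 107 ± 24.5 in libraries labelled Flcn KO with no overlap of the groups. It did not pass in the main limma test (log2 fold change -0.64, SE 0.18, limma adjusted p = 0.14). It passed in limma with trend and robust settings (adjusted p = 0.0145) and in edgeR (adjusted p = 0.0156). Cenpa was named after its values were seen.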

How the data were processed

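RNA of sorted Treg cells was measured in 10 libraries. Build mm9 and the tools DESeq2 1.24.0, RSEM 1.3.1, STAR 2.5.3a and Trimmomatic 0.36 are named, without role or order, in the submitters' processing notes. RNA was isolated with an RNeasy micro kit and cDNA made by a NuGEN method for low input, per the labels' protocols. The deposited table holds a signal per gene and library, called normalized count here, with reads scaled by a factor that is constant within a library. All values (100%, tolerance 0.01 reads) were whole multiples of 1 step per library, 0.628 to 1.27 normalized counts per read, so reads could be recovered. For Flcn KO replicate 4 that step is 0.991, too near 1 for an automatic check of recovery to accept, and its reads were used in the count-model alternatives because its values were whole multiples all the same. The table also holds the authors' mean, their log2 fold change, its standard error, a Wald score, and p-values before and after adjustment, all deposited by the authors.

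The main test was limma 3.58.1 on log2(normalized count + 1) with genotype as the only term, over the 14723 genes with a value of 1 or more in at least 5 libraries. The code was also run on simulated data. That outcome is not given here and is not evidence about any member. Groups came from the sample titles. Alternatives were other pseudocounts (0.5 and 5), filters and scalings, moderated variances with trend and robust settings, a replicate block, leaving out each library, edgeR 4.0.16 and DESeq2 1.42.0 on recovered reads, and the authors' comparison. The members and lists were chosen with earlier results of these data known. Members named with all values are Mki67, those past the threshold, and those with the smallest p (up to 5 at G1/S and 7 at G2/M). A few others, such as Mcm6 and Pcna, were added after their values were seen. In other lists up to 4 called genes were named, or the one with the smallest p. Cdk6, Rb1, Rbl2, Cenpa, Espl1, the D-type cyclins and the kinase inhibitors were added after their values were seen. P-values of limma set the difference between groups against the spread between the 5 libraries of a group, moderated over all genes. Promoters came from RefSeq GRCm38.p6 and lengths from GENCODE vM21, builds other than mm9, used for names, sequences and gene order.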

Additional observations from a re-analysis of the deposited data

Results flagged for a closer look

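In 7 of 80 groups (each of 40 genes in WT and in libraries labelled Flcn KO), 1 library lay far from the other 4 by Dixon's test, which chance gives in about 1 of 20 groups. Mcm5 was 12.4 normalized counts in WT replicate 1, below the 32.5 to 39.9 of the rest of its group. Mcm6 was 237 normalized counts in WT replicate 3, above the 167 to 176 of the rest of its group. Tyms was 28.7 normalized counts in Flcn KO replicate 3, above the 15.9 to 18.9 of the rest of its group. E2f1 was 1.11 normalized counts in Flcn KO replicate 2, below the 8.57 to 9.42 of the rest of its group. Ccnb2 was 2.27 normalized counts in WT replicate 4, below the 11.1 to 14.2 of the rest of its group. Cdc20 was 9.99 normalized counts in Flcn KO replicate 2, above the 1.88 to 3.96 of the rest of its group. Top2a was 155 normalized counts in Flcn KO replicate 3, above the 90.0 to 107 of the rest of its group. The E2f1, Ccnb2 and Cdc20 values rest on 1, 2 and 9 reads.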

How the results depend on the processing

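Pttg1 had a negative log2 fold change under all 22 alternatives (-2.23 to -1.82) and passed under 21 of them. The number of members called, 1 in the main test, was 2 (Pttg1 and Mki67, both in G2/M) with trend and robust settings, in edgeR with and without a filter, in DESeq2 and in the authors' deposited table. The other cell cycle lists then held 5 calls with trend and robust settings and 6 in the other 4, against 3; with trend and robust settings Kif15 was lost while Rbl2, Cenpa and Cdk6 were gained. The count of all genes called was 598, 592, 619, 727 and 703 in these, against 252. In limma with a filter on a mean of 10, the other lists held 4 calls of 303 in all, with Rbl2 gained. With 1 library left out, members called stayed at 1, the other lists held 1 to 2 calls and all genes 122 to 217. The replicate numbers of the titles did not pair the libraries (correlations of deviations 0.0092 to 0.032 for 5 pairs). With the replicate block 0 members and 0 genes of the other lists passed (Pttg1 adjusted p = 0.0635, Cdk4 0.052) and 59 genes in all. The G1/S median, -0.0083 in the main test, ranged from -0.14 to 0.058 under the 22 alternatives, so its sign varied. The G2/M median, -0.32 in the main test, ranged from -0.50 to -0.11. No log2 fold change of the 15 genes recomputed (12 members, Cdk4, Pole2 and Kif15) changed sign. Most were picked for a call or a small p in these data, so their signs say little of the other members. Mcm5 was 0.068 in the main test and -0.030 in the authors' deposited table, and Aurka was -0.057 and 0.010. Aurkb, Ccnb1 and E2f1 had no value under a filter on a mean of 10 or in edgeR with a filter. Cdc45 lacked a value only in edgeR with a filter. Low read counts of mitotic genes limit what could be detected. The labels give no batch.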

Other observations

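Pttg1 lies on chromosome 11, as does Flcn. So do 6 other members, Cdc6, Tk1, Aurkb, Birc5, Hmmr and Top2a. Of 1035 tested genes on that chromosome 19 (1.84%) were called, beside 1.71% of all tested genes. Between Pttg1 and Flcn lay 135 tested genes, of which 2 were called, Fnip1 and 2810021J22Rik. Of the 40 tested genes nearest to Pttg1 in gene order, 20 on each side, 0 were called. Gene order was taken from the RefSeq table of GRCm38.p6. Any link to the levels of Pttg1 was not tested.

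For 9 of the 37 members the annotation holds another gene of the table over part of the locus: Ap4m1 for Mcm7, Afmid for Tk1, Ints8 for Ccne2, Necab3 for E2f1, Exosc9 for Ccna2, Cstf1 for Aurka, Elovl1 for Cdc20, Brd8 and Cdc23 for Kif20a, and Oip5 for Nusap1. None of these partners passed (limma adjusted p 0.279 or more). How reads were divided between such pairs was not given in the sources used here.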
